A study of Mus musculus with 12 samples.

Results

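The genes described here are 42 antiviral interferon-stimulated genes and nucleic acid sensors, chosen by name and followed across 4 groups of mouse livers. All 42 were found by symbol among the 55471 gene IDs of the deposited count table, and all 42 were among the 13866 genes with enough counts to be tested. The livers came from C57BL/6 mice, with 3 samples in each group. The SD group was fed a standard diet, and the MASLD group a diet named for metabolic dysfunction-associated steatotic liver disease (fatty liver). The other 2 groups received the MASLD diet together with Aza-TdC, at 0.1x or at 1x of a dose whose absolute size the labels do not give. Aza-TdC is a deoxycytidine analogue that depletes DNMT1, the methyltransferase that maintains methylation through cell division. The labels give no age, sex, diet composition or length of treatment, and nothing in them says whether a group's 3 samples are 3 animals. The p-values therefore describe sample-to-sample spread, some of which may be technical. The title of the series concerns DNMT1 in the progression of the disease, and the comparisons below ask how these genes differed with the diet and with each dose.

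Cells detect foreign or misplaced nucleic acid with dedicated sensors. RIG-I (encoded by Ddx58) and MDA5 (Ifih1) bind double-stranded RNA in the cytosol and signal through the mitochondrial adaptor MAVS, TLR3 senses RNA in endosomes, and ZBP1 senses Z-form nucleic acid. Signalling leads to interferon, which acts through its receptor on a complex that includes STAT2 and IRF9, and this complex binds the interferon-stimulated response element in promoters. The genes it switches on include IFIT proteins and OAS enzymes that act on viral RNA, the ubiquitin-like modifier ISG15, and more copies of the sensors and factors themselves. In liver, hepatocytes and resident macrophages both respond to interferon.

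The core of the response element was sought in promoter sequence, because many of the members were listed for their response to interferon. The share of members that hold it is therefore not independent of how the list was made. The RefSeq promoter table (build GRCm38.p6) runs from 250 bases before to 50 bases after each gene's start, and it held a window for 32 of the 42 members. The core of the element, GAAA followed by any 2 bases and a second GAAA on either strand, was present in 16 of these 32 members and in 1079 of all 27025 genes with a window (3.99%). The STAT-type motif, TTC and GAA with any 3 bases between them, which reads the same on both strands and was counted separately even where both overlapped, was present in 7 of the 32 (21.9%) and in 9.55% of all genes. A match describes the letters in the window and is not evidence of binding. The 60-base stretches below are written 5′ to 3′ along each gene's own strand, with the GAAA-type core in capitals. They come from chosen members that held the core: known effector genes, the RNA sensors Ddx58 and Ifih1, and the Apol9 pair. That pair moved most at both doses.
Isg15, chr4:156200856-156200915, minus strand: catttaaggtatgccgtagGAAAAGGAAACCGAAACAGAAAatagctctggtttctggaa
Ifit1, chr19:34640770-34640829, plus strand: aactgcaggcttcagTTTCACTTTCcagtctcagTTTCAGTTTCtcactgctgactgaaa
Ifit3, chr19:34583365-34583424, plus strand: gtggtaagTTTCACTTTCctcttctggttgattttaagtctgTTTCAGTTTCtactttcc
Oas1a, chr5:120907508-120907567, minus strand: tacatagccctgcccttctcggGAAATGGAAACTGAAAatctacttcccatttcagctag
Rsad2, chr12:26456538-26456597, minus strand: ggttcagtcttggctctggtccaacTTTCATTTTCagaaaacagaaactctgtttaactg
Bst2, chr8:71537565-71537624, minus strand: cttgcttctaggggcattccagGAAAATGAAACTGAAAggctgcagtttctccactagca
Ddx58, chr4:40239789-40239848, minus strand: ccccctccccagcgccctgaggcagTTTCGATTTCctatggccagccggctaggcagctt
Ifih1, chr2:62646206-62646265, minus strand: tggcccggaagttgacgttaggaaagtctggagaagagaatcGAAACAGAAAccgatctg
Eif2ak2, chr17:78882523-78882582, minus strand: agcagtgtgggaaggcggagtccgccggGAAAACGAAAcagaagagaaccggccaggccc
Apol9a, chr15:77411102-77411161, minus strand: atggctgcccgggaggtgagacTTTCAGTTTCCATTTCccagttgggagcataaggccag
Apol9b, chr15:77729013-77729072, plus strand: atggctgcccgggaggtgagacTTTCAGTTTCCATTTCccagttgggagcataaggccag

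In Isg15 the motif occurred 3 times in succession, and in Ifit1 and Ifit3 it occurred at 2 separated places on the other strand. The stretches of Apol9a and Apol9b were identical in 60 of 60 bases, and their whole windows matched at 278 of 278 aligned bases after a shift of 22 bases. The windows of Irf1, Irf7, Irf9, Mavs and Trim25 held no such core. Neither did those of the sensor Tlr3, of the effectors Ifit2, Oasl1, Oasl2 and Cmpk2, or of Ifi35, Ifi44, Ifi47, Xaf1, Adar and Dtx3l. No window was given for the sensors Dhx58 and Zbp1 or for Ifi27, Mx1, Mx2, Oas2, Usp18, Rtp4, Parp9 and Parp14. The whole window of Apol9b is given because this gene had the largest log2 fold change of the set on the diet and at 1x.
Apol9b, chr15:77728822-77729121, plus strand: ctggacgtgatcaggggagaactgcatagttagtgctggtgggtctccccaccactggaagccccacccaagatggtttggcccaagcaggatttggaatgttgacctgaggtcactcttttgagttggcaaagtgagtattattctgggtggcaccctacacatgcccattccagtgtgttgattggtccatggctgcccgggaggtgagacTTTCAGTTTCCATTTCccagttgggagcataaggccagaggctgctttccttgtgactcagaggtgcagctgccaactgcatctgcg

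Near-identical sequence matters for counting as well. Of the 150-base windows in the annotated transcripts, 22.5% of those of Apol9b and 7.1% of those of Apol9a occurred in both genes. For Oas1a and Oas1g the shares were 32.4% and 24.1%, and for Ifit3 and Ifit3b they were 18.5% and 16.0%. Counts of these pairs are therefore uncertain between the partners. The strand setting of the counting is not given in the sources used here, so reads of Parp9 cannot be told apart from those of its neighbour Dtx3l in 682 shared bases or from an antisense RNA (Gm15564, 5854 shared bases), and the same holds for Rtp4 and Masp1 in 525 bases.

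Each library held 30213048 to 41852606 counts. In part the libraries differed in a way that followed the GC content and length of genes: this trend was strongest in 0.1x sample 3, where it took 32.3% of the variance, followed by 25.4% for 1x sample 2 and 18.7% for MASLD sample 5, and weakest in SD sample 4 (0.414%). The calls of the members that were lost with the trend removed are named beside each comparison. Single libraries also stood apart on these genes. SD sample 3 was the highest SD library for 34 of the 42 members (81.0%, against 36.2% of all tested genes), and 1x sample 2 was the highest 1x library for 33 of 42 (78.6%, against 35.7%). The 10 hepatocyte markers, most of them secreted or metabolic genes, were present in every library. They summed to 163000 to 175000 CPM (counts scaled to library size) in SD, 84000 to 104000 in MASLD, 89300 to 133000 at 0.1x and 101000 to 119000 at 1x.

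Across the 4 groups, the members summed to 793 to 1000 CPM in SD, 784 to 858 in MASLD, 995 to 1040 at 0.1x and 1180 to 1280 at 1x. The 1x libraries lay above all the others in this sum, and the SD and MASLD libraries overlapped. The 1x group had the highest mean for 24 of the 42 members and the lowest for none (0 of 42), while the lowest mean fell in SD for 20 and in MASLD for 18. Per kilobase of coding transcript, the mean level in SD was highest for Bst2 (tetherin, which holds budding virus at the cell surface) at 222 CPM per kb, followed by Ifi27 at 106 and Apol9b at 86.7. It was lowest for Oas2 at 0.057 CPM per kb. In bulk tissue, a change in the number of cells of a type and a change in the RNA per cell cannot be told apart.

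**Figure D1:**
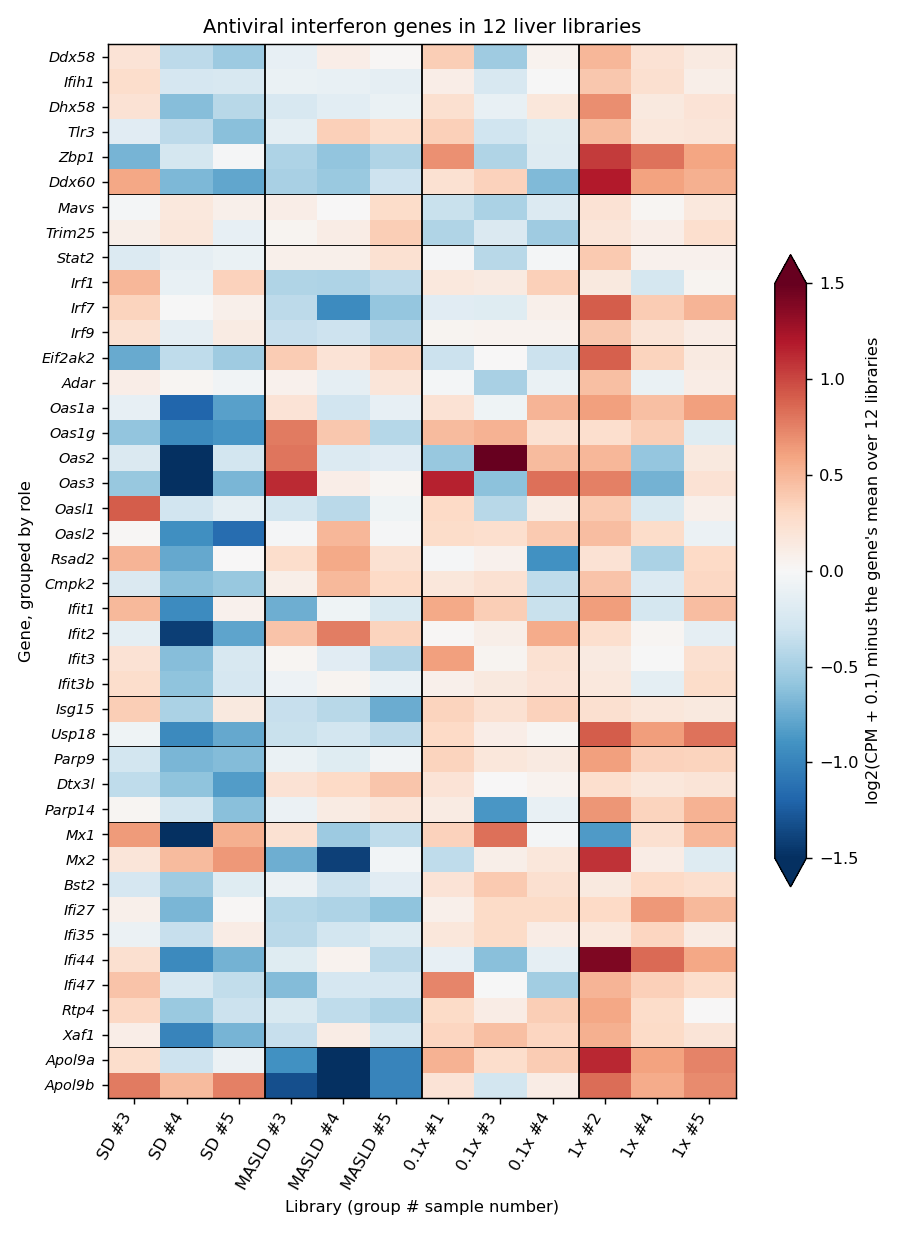
Each row is a member, grouped by role, and each column a library. Colour gives log2(CPM + 0.1) minus the gene's mean over the 12 libraries, limited at 1.5 in either direction; the red block of the 1x libraries is strongest in 1x sample 2, and SD sample 3 stands apart from the other SD libraries.

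On the MASLD diet the members moved in both directions. The interferon regulatory factors Irf1, Irf7 and Irf9 fell together with Isg15, Mx2 and both Apol9 genes, while 5 of the 10 effectors that act on RNA or its synthesis rose: the double-stranded RNA kinase PKR (Eif2ak2), the OAS genes Oas1g, Oas3 and Oasl2, and the nucleotide kinase Cmpk2. Of the 4 IFIT genes, 1 rose (Ifit2). In all, 8 members passed as higher and 7 as lower at an adjusted p under 0.05. That is 35.7% of the members, beside 29.5% of all tested genes (15.6% higher and 13.9% lower), a share near that background. The median log2 fold change was 0.10 over the members and 0.03 over all tested genes. Of the 10 hepatocyte markers, 9 were lower on the diet (median log2 fold change of the 10, -1.08), and the part of this in the members' differences was not tested.

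The APOL9 proteins are interferon-inducible relatives of the apolipoprotein L family. Apol9b (ENSMUSG00000068246, chr15:77729039-77736382, mm10) stood at 111, 90.2 and 109 CPM in the SD libraries and at 25.8, 18 and 32.4 in the MASLD libraries, in order of sample number. The groups were far apart, with a log2 fold change of -2.02 ± 0.19 (SE, here and below) and an adjusted p of 3.22e-06 (edgeR's quasi-likelihood test with Benjamini-Hochberg adjustment, as for every adjusted p below). Apol9a (ENSMUSG00000057346, chr15:77403789-77411135) was at 41.1, 27.7 and 32.4 CPM in SD and 18.3, 11.3 and 17.3 in MASLD, again without overlap (log2 fold change -1.11 ± 0.19, adjusted p = 0.000628).

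Among the transcription factors, Irf7, the factor that amplifies type I interferon production, was at 43.6, 34.3 and 36.2 CPM in SD and 26.2, 17.9 and 23 in MASLD (log2 fold change -0.76 ± 0.16, adjusted p = 0.00317). Irf1, which is induced by interferon gamma as well, was at 27.1, 17.8 and 24.3 and 13.9, 13.9 and 14.6 (log2 fold change -0.71 ± 0.15, adjusted p = 0.00312). Irf9, a DNA-binding partner of STAT2, changed by -0.45 ± 0.12 (adjusted p = 0.0103). All 3 were lower in every MASLD library than in every SD library. Stat2, the partner of Irf9, did not pass, at 0.27 ± 0.13 (adjusted p = 0.125).

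The rise with the smallest adjusted p was that of Dtx3l, a ubiquitin ligase that works in a complex with the ADP-ribosyltransferase PARP9. Dtx3l stood at 31.4, 26.8 and 22.9 CPM in SD and 47.3, 50.2 and 54.4 in MASLD (log2 fold change 0.91 ± 0.12, adjusted p = 6.9e-05), and Parp9 rose by 0.41 ± 0.13 (adjusted p = 0.0252), a call lost with the GC and length trend removed (0.31, adjusted p = 0.0569). Eif2ak2 was at 4.95, 6.46 and 5.82 CPM in SD and 11.01, 9.72 and 10.8 in MASLD (log2 fold change 0.87 ± 0.19, adjusted p = 0.00323). Ifit2, which binds RNA in the cytosol, was at 1.74, 0.665 and 1.08 and 2.64, 3.36 and 2.46 (log2 fold change 1.29 ± 0.30, adjusted p = 0.00575). For all 4 of these genes every MASLD library lay above every SD library.

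The remaining calls were smaller or rested on few counts. Cmpk2 rose by 0.78 ± 0.23 (adjusted p = 0.0204) and Oas1g by 1.44 ± 0.45 (adjusted p = 0.026), the latter from 0.273, 0.19 and 0.203 CPM in SD to 0.862, 0.641 and 0.318 in MASLD. Oasl2 rose by 0.80 ± 0.28, with an adjusted p of 0.042 and overlapping groups, and its call was lost with the trend removed (0.75, adjusted p = 0.0546). The calls of Oas3 (log2 fold change 1.60 ± 0.58, adjusted p = 0.0489; trend removed 1.40, adjusted p = 0.069) and Mx2 (log2 fold change -1.18 ± 0.42, adjusted p = 0.0482; trend removed -1.16, adjusted p = 0.0533) were lost in the same way. Isg15 fell by 0.56 on the log2 scale, from 10.1, 5.57 and 8.61 to 6.09, 5.796 and 4.58 CPM (adjusted p = 0.0349), and this call was lost with the GC and length trend removed (-0.23, adjusted p = 0.38). In all, 10 of the 15 calls on the diet held with the trend removed. None (0) of the 6 sensors passed by edgeR or by DESeq2, and 1 had an unadjusted p under 0.05. Every MASLD library lay above every SD library for 10 members and below for 6, beside 25.1% and 22.8% of all tested genes. Leaving out 1 library at a time ended the calls of 7 genes (Cmpk2, Isg15, Mx2, Oas1g, Oas3, Oasl2 and Parp9), with adjusted p from 0.0502 to 0.209, and left 8 calls in all without SD sample 5 or without MASLD sample 4.

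At the 0.1x dose, compared with the MASLD diet alone, the Apol9 pair, Irf1, Irf7 and Irf9, and the effectors Isg15, Ifi27, Ifi35 and Bst2 rose. The adaptor Mavs and Trim25, a ubiquitin ligase that acts on RIG-I, fell. The count was 9 higher and 2 lower, or 26.2% of the members beside 13.2% of all tested genes (6.08% higher and 7.09% lower). The members' median log2 fold change was 0.32, beside -0.02 over all genes. This comparison uses the same MASLD libraries as the comparisons with SD and with the 1x dose, so opposite or like directions between them are not independent.

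Apol9a stood at 49.3, 41.2 and 44.6 CPM in the 0.1x libraries, above every MASLD library (log2 fold change 1.53 ± 0.19, adjusted p = 0.00262). Apol9b stood at 74.9, 53.4 and 69.8 CPM (log2 fold change 1.38 ± 0.19, adjusted p = 0.00262). Irf1 was at 21.4, 21.1 and 24.5 CPM (log2 fold change 0.66 ± 0.15, adjusted p = 0.0158). Irf9 was at 26.6, 26.9 and 26.9 CPM (log2 fold change 0.42 ± 0.12, adjusted p = 0.0328) and Irf7 at 30.5, 30.4 and 36.2 CPM (log2 fold change 0.53 ± 0.16, adjusted p = 0.0457). For all 5 genes every 0.1x library lay above every MASLD library, as it did for 15 members in all, with 6 below (16.8% and 18.7% of all tested genes).

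The other 6 calls divided by whether they held once the GC and length trend was taken out. Mavs was at 91.95, 86.1 and 104 CPM in MASLD and 67.9, 61.7 and 73.9 at 0.1x (log2 fold change -0.47 ± 0.11, adjusted p = 0.0171), and it passed with the trend removed too (-0.39, adjusted p = 0.0371). The calls of the other 5 did not hold. Isg15 was at 9.79, 9.12 and 9.93 CPM, with log2 fold change 0.81 ± 0.18, adjusted p = 0.0155 as deposited and 0.38, adjusted p = 0.264 with the trend removed. Ifi27, a small mitochondrial and nuclear envelope protein, was at 75.9, 73.8 and 66.7 CPM in MASLD and 108, 124 and 124 at 0.1x, with log2 fold change 0.72 ± 0.17, adjusted p = 0.0161 and 0.35, adjusted p = 0.157. Bst2 was at 205, 175 and 194 and 252, 287 and 258 CPM, with log2 fold change 0.47 ± 0.12, adjusted p = 0.0203 and 0.09, adjusted p = 0.675. Trim25 was at 57.8, 60.7 and 72.4 and 41.1, 48.4 and 38.9 CPM, with log2 fold change -0.57 ± 0.12, adjusted p = 0.0134 and -0.24, adjusted p = 0.287. For Ifi35 the values were log2 fold change 0.48 ± 0.12, adjusted p = 0.0241 and 0.23, adjusted p = 0.233. With the trend removed, 6 calls were left, 5 higher and 1 lower.

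The 6 sensors and the 10 RNA-directed effectors did not pass at this dose by edgeR or by DESeq2 (1 sensor and 1 effector had an unadjusted p under 0.05). Ddx58 differed by 0.01 ± 0.21 (adjusted p = 0.987), Ifih1 by 0.07 ± 0.15 (adjusted p = 0.772) and Tlr3 by -0.19 ± 0.23 (adjusted p = 0.605). Eif2ak2 was lower in every 0.1x library (6.72, 8.503 and 6.75 CPM), but its adjusted p was 0.0752. Without MASLD sample 3, 6 members passed, without MASLD sample 4, 4 passed, and without MASLD sample 5, 2 passed. Only the 2 Apol9 calls held under each of the 12 left-out libraries, and the 9 others reached adjusted p of up to 0.183. Under every alternative run, only the Apol9a call held.

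**Figure D2:**
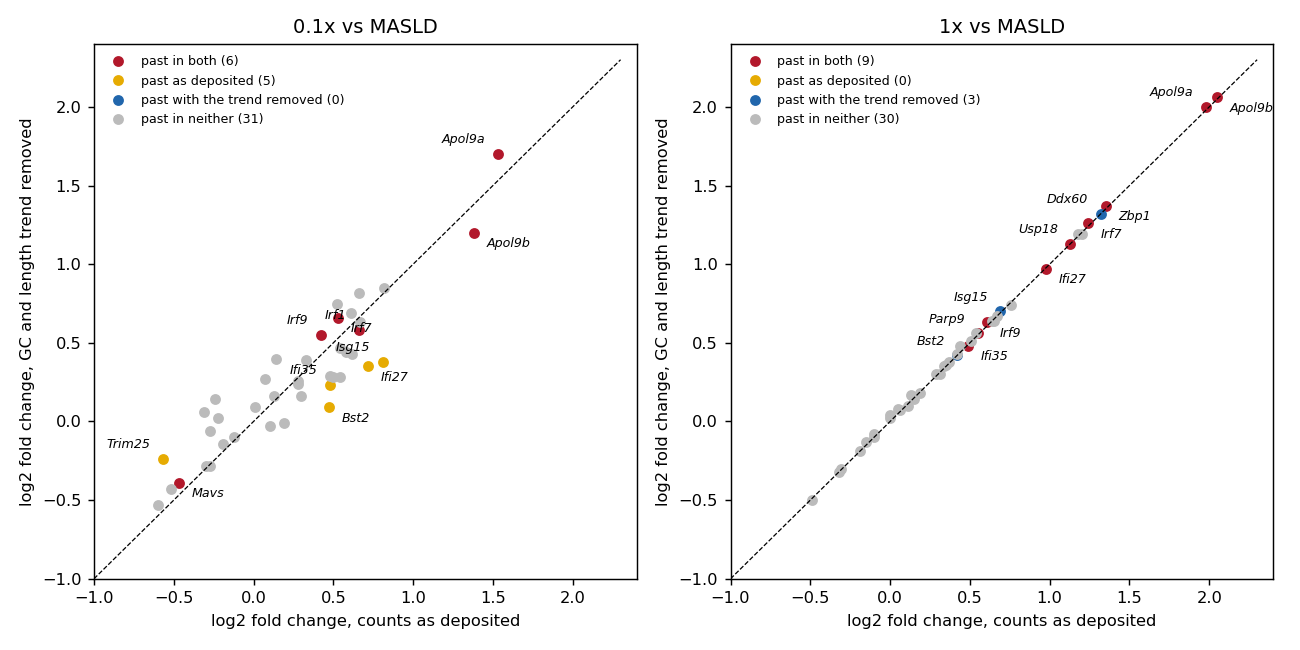
Each point is a member; the x axis is the log2 fold change from the counts as deposited and the y axis the same with the GC and length trend removed, for the 0.1x dose (left) and the 1x dose (right) against MASLD. Points off the dashed line moved with the correction: at 0.1x 5 calls were lost, and at 1x all 9 calls held and 3 more passed.

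At the 1x dose, compared with the MASLD diet alone, 9 members rose and none (0) fell. They were the Apol9 pair, Irf7 and Irf9, the ISG15 protease Usp18, the sensor Zbp1, Parp9, and the effectors Ifi27 and Ifi35. No member was lower at an unadjusted p under 0.05 or by DESeq2 either (0 in both). The 9 are 21.4% of the members, beside 3.11% of all tested genes (1.49% higher and 1.62% lower). The median log2 fold change of the members was 0.42, against a median of -0.00 over all genes. Every 1x library lay above every MASLD library for 22 of the 42 members, and below for 1, beside 13.5% and 14.3% of all tested genes.

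Apol9b was at 116, 95.3 and 106 CPM at 1x (log2 fold change 2.05 ± 0.19, adjusted p = 0.000128) and Apol9a at 74.98, 52.1 and 57.3 CPM (log2 fold change 1.98 ± 0.19, adjusted p = 0.00016). Irf7 was at 64.8, 44.8 and 48.9 CPM (log2 fold change 1.24 ± 0.17, adjusted p = 0.00126). Usp18, which removes ISG15 from proteins and restrains receptor signalling, was at 6.73, 7.001 and 6.44 CPM in MASLD and 16.02, 13.2 and 15.04 at 1x (log2 fold change 1.13 ± 0.19, adjusted p = 0.00601). Ifi27 was at 125, 159 and 143 CPM (log2 fold change 0.98 ± 0.17, adjusted p = 0.00708). These 5 calls held under each of the 12 left-out libraries, and for each gene the 3 libraries of 1x lay above the 3 of MASLD. With the sample numbers as a block in the fit, 4 of the 9 calls at this dose held. That block takes up 1x sample 2, whose number no other library has. Its losses cannot be told apart from those of leaving out this library, which left 5 calls. Only the calls of Apol9a and Apol9b held under every alternative run. These runs include a block by library name, in which 1x sample 4 alone carries the 1x group.

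The other 4 calls were less secure against leaving out a library. Zbp1 was at 3.34, 3.05 and 3.37 CPM in MASLD and 9.69, 8.21 and 7.03 at 1x (log2 fold change 1.35 ± 0.26, adjusted p = 0.0133), and it was the only one of the 6 sensors to pass by edgeR, where DESeq2 called 2 and 4 had an unadjusted p under 0.05 by edgeR. Irf9 was at 34.4, 29.7 and 28.1 CPM (log2 fold change 0.61 ± 0.12, adjusted p = 0.0125), Parp9 at 40.6, 38.4 and 42.02 in MASLD and 66.99, 55.4 and 55 at 1x (log2 fold change 0.55 ± 0.13, adjusted p = 0.0308), and Ifi35 differed by 0.49 ± 0.12 (adjusted p = 0.0458). Their calls were lost without at least 1 library, with adjusted p up to 0.206. In all, 5 members passed without MASLD sample 3, without MASLD sample 4 or without 1x sample 2.

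Other familiar interferon-stimulated genes showed no call by edgeR, although DESeq2 called 14 members where edgeR called 9. By DESeq2 the adjusted p was 0.0131 for Isg15, 0.0128 for Bst2 and 0.013 for Ddx60. Isg15 was at 9.16, 8.76 and 8.62 CPM, all above the MASLD libraries, with log2 fold change 0.69 ± 0.18, adjusted p = 0.0557, and it passed with the trend removed (0.70, adjusted p = 0.0455). Bst2 passed likewise with the trend removed, at 241, 268 and 260 CPM (log2 fold change 0.42 ± 0.12, adjusted p = 0.065; trend removed 0.42, adjusted p = 0.0247), as did the helicase Ddx60, a helper of RIG-I (log2 fold change 1.32 ± 0.37, adjusted p = 0.0709; trend removed 1.32, adjusted p = 0.0455). Ifit1 was at 2.39, 3.85 and 3.44 CPM in MASLD and 6.29, 3.33 and 5.603 at 1x, which overlap (log2 fold change 0.65 ± 0.34, adjusted p = 0.347). Ifit3 differed by 0.31 ± 0.20 (adjusted p = 0.489). Rsad2 (viperin, which makes a chain-terminating nucleotide) differed by -0.32 ± 0.31 (adjusted p = 0.693) and Oasl2 by 0.06 ± 0.27 (adjusted p = 0.953). None of the 10 effectors acting on RNA or its synthesis and none of the 4 IFIT genes passed at either dose, by edgeR or by DESeq2. At 1x, 1 of the effectors and 0 of the IFIT genes had an unadjusted p under 0.05 by edgeR.

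Of the RNA sensors, Ddx58 was at 16.8, 19.5 and 18.4 CPM in MASLD and 25.8, 21.2 and 19.98 at 1x (log2 fold change 0.29 ± 0.21, adjusted p = 0.55), and Ifih1 at 16.9, 16.8 and 16.5 and 24.1, 21.5 and 19.3 (log2 fold change 0.37 ± 0.15, adjusted p = 0.203). In neither gene did the groups overlap. Tlr3 differed by 0.11 ± 0.22 (adjusted p = 0.875), Adar, which edits double-stranded RNA, by 0.13 ± 0.16 (adjusted p = 0.763), and Stat2 by 0.05 ± 0.13 (adjusted p = 0.904). Mavs was at 99.4, 87.4 and 95.3 CPM, within the range of the MASLD libraries (log2 fold change 0.00 ± 0.11, adjusted p = 1). Split by promoter sequence, 2 of the 16 members with the GAAA-type core, 3 of the 16 without it and 4 of the 10 with no window given passed as higher.

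**Figure D3:**
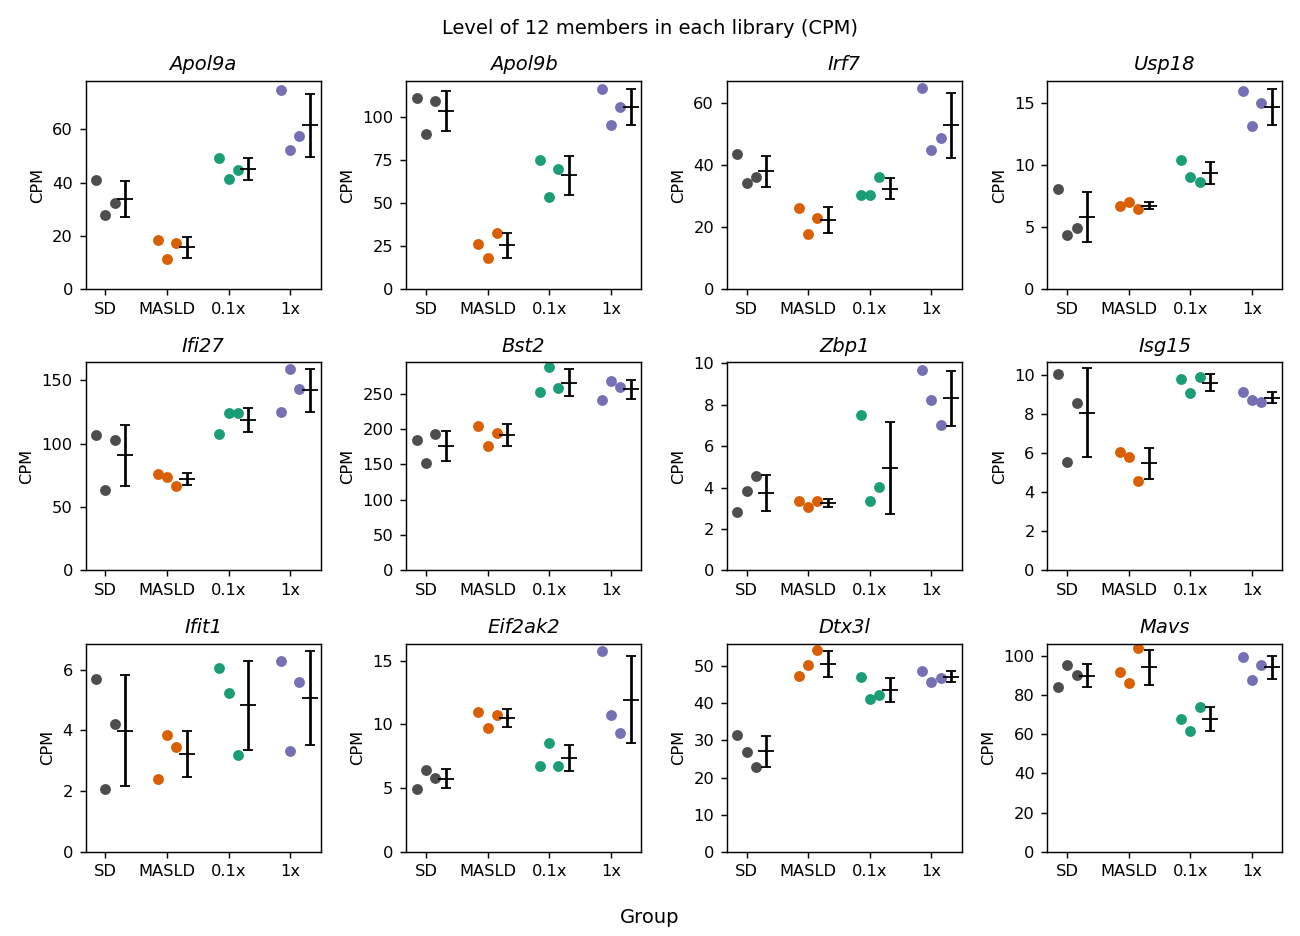
CPM of 12 members in each library (points), by group, with the mean and SD beside the points. The Apol9 genes and Irf7 are lower in MASLD than in SD and higher again with Aza-TdC, Usp18 and Zbp1 are highest at 1x, Dtx3l is higher in all 3 groups on the MASLD diet, and Mavs is lowest at 0.1x.

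**Figure D4:**
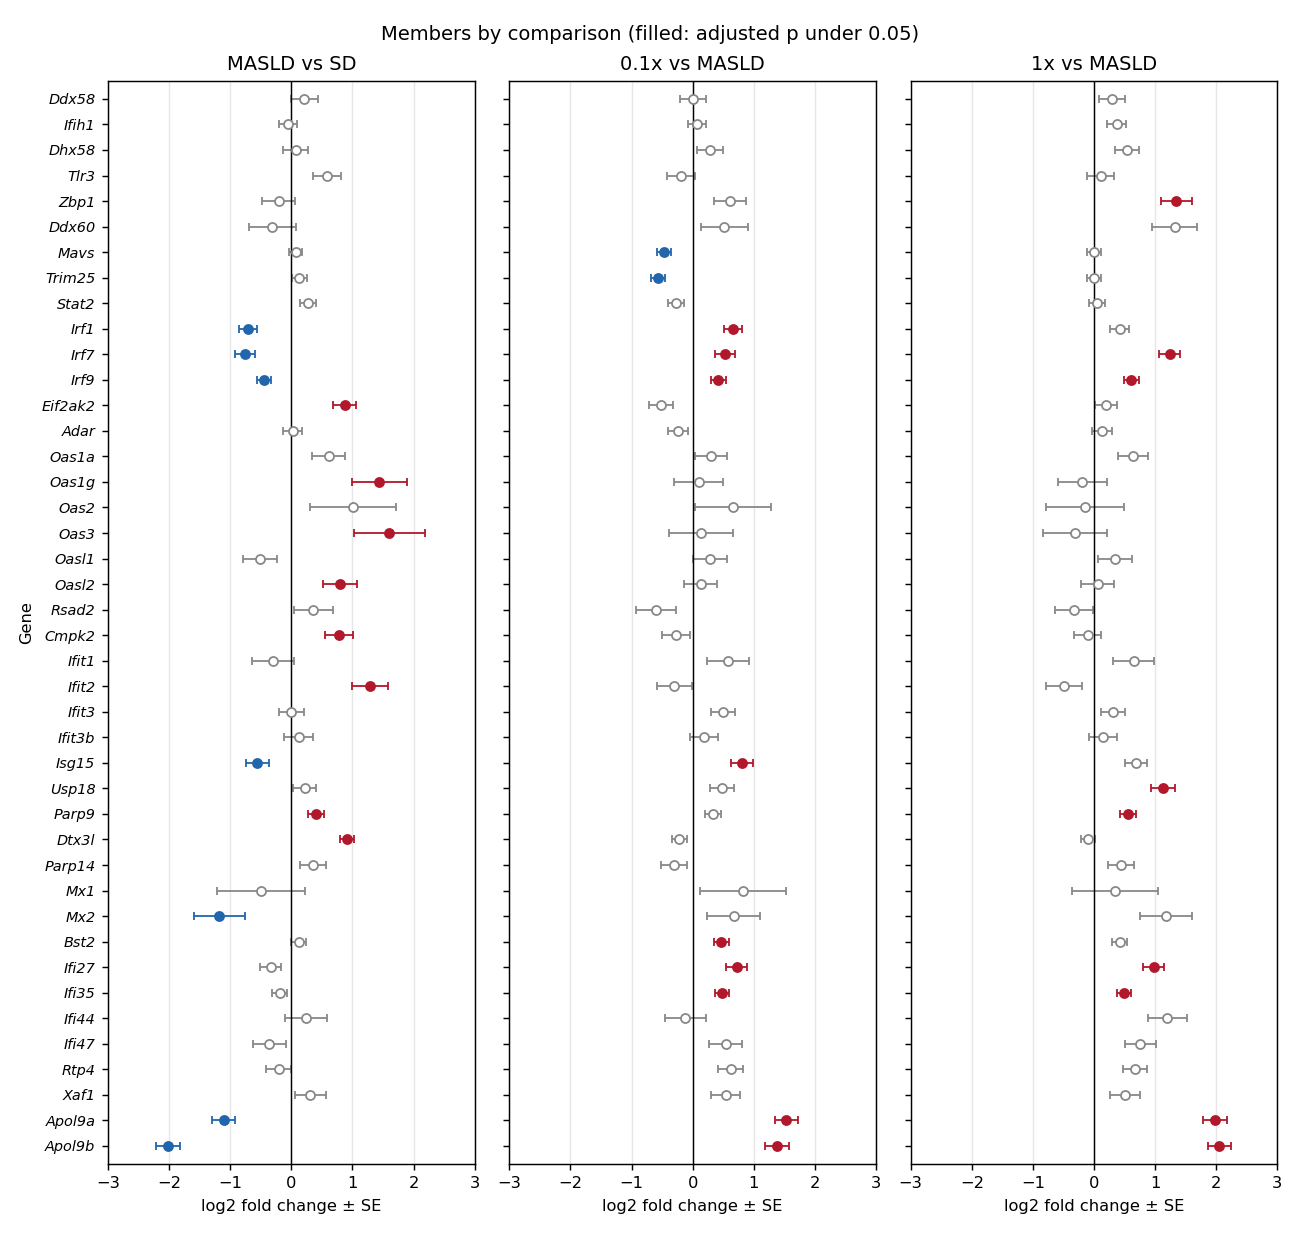
Log2 fold change with its SE for each member, by comparison; filled red points passed as higher, filled blue as lower, and open points did not pass. At 1x against MASLD all 9 filled points lie to the right of 0.

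The 2 doses were also compared with each other. At 1x, 8 members were higher than at 0.1x and none (0) lower: Apol9b, Irf7, Usp18, Ifi44, Parp14, Eif2ak2, Mavs and Trim25. No member was lower by DESeq2 or at an unadjusted p under 0.05 (0 in both). The 8 make up 19.0% of the members, beside 13.0% of all tested genes (7.13% higher and 5.86% lower). Ifi44 was at 1.49, 1.02 and 1.47 CPM at 0.1x and 4.46, 3.02 and 2.48 at 1x (log2 fold change 1.33 ± 0.33, adjusted p = 0.0206). Irf7 differed by 0.71 ± 0.16 (adjusted p = 0.0157), Apol9b by 0.68 ± 0.18 (adjusted p = 0.0272) and Usp18 by 0.65 ± 0.19 (adjusted p = 0.0346). Eif2ak2 differed by 0.70 ± 0.18 (adjusted p = 0.0252). Mavs (log2 fold change 0.47 ± 0.11, adjusted p = 0.0171) and Trim25 (log2 fold change 0.57 ± 0.12, adjusted p = 0.0127) were at levels like those in MASLD at 1x and lower at 0.1x. Apol9a did not pass (log2 fold change 0.45 ± 0.19, adjusted p = 0.12). None (0) of the 8 calls held when 1x sample 2 was left out, where 9 members were higher at an unadjusted p under 0.05, and 4, 5 and 4 members passed without 0.1x sample 3, 0.1x sample 4 and 1x sample 5; with the GC and length trend removed, the calls of Trim25, Eif2ak2 and Parp14 were lost (0.28, adjusted p = 0.194, 0.61, adjusted p = 0.0529 and 0.42, adjusted p = 0.171).

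**Figure D5:**
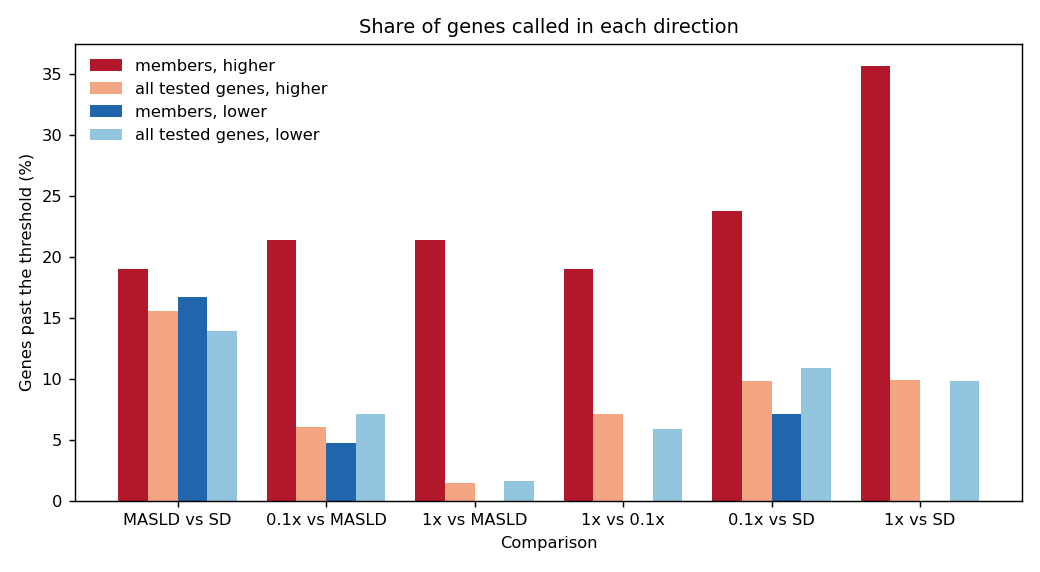
Percent of the 42 members and of all 13866 tested genes that passed as higher or as lower in each of the 6 comparisons. The bars of the members and of all genes are close for the diet, and the members' bar for higher is 21.4% beside 1.49% at 1x against MASLD.

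The treated livers were also set against the standard diet, in comparisons that share the SD libraries with the diet comparison. At 1x, 15 members were higher than in SD and none (0) lower (35.7% of the members, beside 19.8% of all tested genes, 9.91% higher and 9.84% lower), and DESeq2 and unadjusted p under 0.05 also gave 0 lower. Parp9 (log2 fold change 0.97 ± 0.13, adjusted p = 0.000146), Usp18 (log2 fold change 1.35 ± 0.19, adjusted p = 0.000233) and Dtx3l (log2 fold change 0.80 ± 0.12, adjusted p = 0.000372) had the smallest adjusted p, followed by Eif2ak2 (log2 fold change 1.06 ± 0.19, adjusted p = 0.00132), Oas1a (log2 fold change 1.25 ± 0.26, adjusted p = 0.00399) and Bst2 (log2 fold change 0.54 ± 0.12, adjusted p = 0.00472). Apol9b at 1x could not be distinguished from SD (log2 fold change 0.03 ± 0.18, adjusted p = 0.927), whereas Apol9a was above it (log2 fold change 0.87 ± 0.19, adjusted p = 0.0051). Tlr3 passed in this comparison (log2 fold change 0.69 ± 0.23, adjusted p = 0.0443), but not with the trend removed (0.58, adjusted p = 0.0772), and the call of Oasl2 was lost likewise (0.82, adjusted p = 0.0504). The calls of 6 genes (Dhx58, Ifi27, Oasl2, Parp14, Tlr3 and Xaf1) were lost without 1 library or another, with adjusted p up to 0.245. Without SD sample 4, 11 members passed as higher and 1 as lower. Of the 15 calls, 13 held with the trend removed, 9 with the replicate block and 9 under each left-out library. Only the Parp9 call held under every alternative run. These runs include a block by library name, in which 1x sample 4 alone carries the 1x group.

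At 0.1x, 10 members were higher and 3 lower than in SD (31.0% of the members, beside 20.7% of all tested genes, 9.85% higher and 10.9% lower). Parp9 (log2 fold change 0.74 ± 0.13, adjusted p = 0.00104), Dtx3l (log2 fold change 0.69 ± 0.12, adjusted p = 0.00115) and Bst2 (log2 fold change 0.59 ± 0.12, adjusted p = 0.00263) held under each left-out library. Of these, only the calls of Parp9 and Bst2 held under every alternative run. Apol9b was below SD (log2 fold change -0.65 ± 0.18, adjusted p = 0.0211), as were Mavs (log2 fold change -0.40 ± 0.11, adjusted p = 0.0183) and Trim25 (log2 fold change -0.44 ± 0.12, adjusted p = 0.0197; trend removed -0.33, adjusted p = 0.0691). Every 0.1x library lay above every SD library for 13 members and below for 4, beside 15.3% and 16.6% of all tested genes. The other 10 calls reached adjusted p of up to 0.164 when 1 library was left out, and 4, 6, 7 and 8 members passed without SD sample 4, SD sample 5, 0.1x sample 1 and 0.1x sample 4.

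The genes that lie before and after these members in the pathway were taken from separate lists. Interferon itself was close to absent from the RNA. Of 18 type I interferon genes, 16 had 0 counts in all 12 libraries, Ifnb1 among them, and the other 2 gave 2 counts in total, both in the MASLD group. Ifng gave 2, 2, 6 and 0 counts in SD, MASLD, 0.1x and 1x, and Ifnl2 and Ifnl3 gave 0. None of these ligands could be tested, and a count of 0 allows up to 3 counts, or 0.0717 to 0.0993 CPM per library (counting error only).

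Of 15 receptor and JAK-STAT genes, 13 were tested. On the diet 1 was higher and 2 lower, among them the receptor chain Ifnar2 (log2 fold change -0.47 ± 0.12, adjusted p = 0.00676). Of all tested genes, 15.6% were higher and 13.9% lower on the diet, and 6.08% were higher at 0.1x. At 0.1x Socs3, a feedback inhibitor of JAK kinases, passed by edgeR (log2 fold change 0.79 ± 0.24, adjusted p = 0.0419), while DESeq2 called 3 genes of the list. At 1x none (0) did by edgeR, where 4 had an unadjusted p under 0.05 and DESeq2 called 1 higher and 1 lower. Ifnar1 did not pass at 0.1x (log2 fold change -0.21 ± 0.12, adjusted p = 0.246) or at 1x (log2 fold change -0.07 ± 0.12, adjusted p = 0.846).

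In the DNA-sensing list, 11 of 14 genes were tested, and none (0) passed at either dose by edgeR or by DESeq2, with 1 at 0.1x and 0 at 1x at an unadjusted p under 0.05. The DNA sensor Cgas had too few counts to test (0 to 19 per library). Its adaptor Sting1 differed by -0.76 ± 0.39 at 1x (adjusted p = 0.347) and the kinase Tbk1 by 0.24 ± 0.13 (adjusted p = 0.355). Irf3, the factor activated downstream of both RNA and DNA sensors, was lower on the diet (log2 fold change -0.66 ± 0.10, adjusted p = 0.000317) and did not pass at 1x (log2 fold change 0.17 ± 0.10, adjusted p = 0.44).

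Among 21 genes that carry or restrain RNA-sensor signals, 7 were higher and 2 lower on the diet, 5 were lower at 0.1x, and 1 was lower at 1x. Of all tested genes, 15.6% were higher and 13.9% lower on the diet, 7.09% lower at 0.1x and 1.62% lower at 1x. Rnf125, a ligase that marks RIG-I for degradation, was higher on the diet (log2 fold change 1.55 ± 0.20, adjusted p = 5.43e-05) and lower at 0.1x (log2 fold change -1.22 ± 0.20, adjusted p = 0.00513). Tnfaip3 (A20), which dampens NF-kB signalling, did likewise (log2 fold change 1.39 ± 0.31, adjusted p = 0.00419; log2 fold change -1.41 ± 0.31, adjusted p = 0.0145), as did Trim56 at 0.1x (log2 fold change -0.90 ± 0.20, adjusted p = 0.0142). At 1x edgeR called Irf5 (log2 fold change -1.08 ± 0.25, adjusted p = 0.0352), while DESeq2 called 3 genes as lower and 8 were lower at an unadjusted p under 0.05 by edgeR.

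Of 43 further interferon-stimulated genes outside the 42, 12 were higher and 4 lower on the diet, 4 were higher at 0.1x, and 5 were higher and 1 lower at 1x. Of all tested genes, 15.6% were higher and 13.9% lower on the diet. The shares were 6.08% higher at 0.1x, and 1.49% higher and 1.62% lower at 1x. Ifitm3, which blocks virus entry at membranes, was lower on the diet (log2 fold change -0.81 ± 0.14, adjusted p = 0.000675) and higher at 0.1x (log2 fold change 0.66 ± 0.14, adjusted p = 0.0135) and 1x (log2 fold change 0.73 ± 0.14, adjusted p = 0.0148). At 1x Parp10 (log2 fold change 0.72 ± 0.13, adjusted p = 0.00939) and Slfn9 (log2 fold change 1.21 ± 0.28, adjusted p = 0.0289) also rose, and Ifi27l2b fell (log2 fold change -0.99 ± 0.22, adjusted p = 0.0253). Against MASLD, the median of this list was 0.05 at 0.1x and 0.11 at 1x, lower than the 0.32 and 0.42 of the 42 members. Against SD, it was 0.33 at 0.1x and 0.41 at 1x, beside 0.32 and 0.52 for the members.

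Markers of other liver cells moved with the groups too. The 14 Kupffer cell and macrophage markers summed to 201 to 315 CPM in SD, 395 to 593 in MASLD, 477 to 556 at 0.1x and 215 to 407 at 1x. Of them, 10 were higher on the diet, and at 1x against 0.1x 7 were lower by edgeR (15.6% and 5.86% of all tested genes). At 1x against MASLD, edgeR called 2 as lower and 1 as higher (1.62% and 1.49% of all tested genes), with a median log2 fold change of -0.75 over the 14. There DESeq2 called 5 as lower, edgeR called 5 as lower without 1x sample 2, and 11 were lower at an unadjusted p under 0.05 by edgeR. The 10 hepatocyte markers went the other way: 9 were lower on the diet (13.9% of all tested genes). At 1x against MASLD 2 were higher by edgeR (1.49% of all tested genes), with 0 higher without 1x sample 2 (4 at an unadjusted p under 0.05). The 10 sinusoidal endothelial markers summed to 127 to 163 CPM in SD and to 201 to 256 over the 3 groups on the MASLD diet. Plasmacytoid dendritic cell markers, from cells that make much type I interferon, summed to 4.75 to 6.07 CPM in SD, 7.13 to 7.98 in MASLD, 5.11 to 7.22 at 0.1x and 5.02 to 6.43 at 1x. T and NK cell markers summed to 2.99 to 10.9 CPM over all libraries and neutrophil markers to 1.11 to 4.90, and no marker of these lists or of the B cell list was at 0 in all libraries. Their part in the differences of the 42 members was not tested.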

How the data were processed

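Liver RNA of 12 samples in 4 groups of 3 was sequenced as stranded polyadenylated libraries in 150-base pairs, per the labels' protocols. Reads were aligned with STAR 2.7.3a to mm10, per the submitters' processing notes. For the counting tool, strand setting and annotation, the value is not given in the sources used here. Whole-number counts per gene were deposited, with 30213048 to 41852606 counts per library. Symbols and positions came from GENCODE vM21, which matched 55230 of 55471 IDs, and unmatched IDs held 0.003282% of the counts. One title gives sample 5 where its library name gives 8, and the title was followed.

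With edgeR 4.0.16 in R 4.3.3, filterByExpr by group kept 13866 of the 22984 genes that had counts. TMM factors scaled the libraries, and a single quasi-likelihood fit held all 12. Contrasts were tested two-sided, with Benjamini-Hochberg adjustment over all 13866 genes and a threshold of 0.05. The SE was taken as the size of the log2 fold change over the root of its F statistic. CPM values and all tests were derived here from the deposited counts. The fit was tested on simulated data.

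The members and gene lists were chosen with earlier results of these data known. Named were the 6 members with the smallest adjusted p per direction and comparison, a fixed set (Isg15, Ifit1, Ifit3, Rsad2, Oasl2, Irf7, Stat2, Ddx58, Ifih1, Tlr3, Mavs, Eif2ak2 and Adar), up to 3 called genes per pathway list and direction, and Ifnar1, Ifnar2, Cgas, Sting1, Tbk1, Irf3 and Ifnb1. One further gene of that rule is not reported here. Other members were named after their values were seen. Alternatives were other scaling factors, no filter or a mean of 1 CPM, DESeq2 1.42.0 and only the 2 groups compared. Further ones were a replicate block by title or by library name, removal of a GC and length trend, and each library left out.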

Additional observations from a re-analysis of the deposited data

How the results depend on the processing

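No member changed direction past the threshold under any of the alternatives run. The number of members called at 0.1x against MASLD was 6 with the GC and length trend removed, and 2 to 13 with 1 library left out. At 1x against MASLD it was 16 with no filter, 14 with DESeq2 and 16 with only the 2 groups compared, and 5 to 13 with 1 library left out. At 1x against 0.1x it was 5 with only the 2 groups compared and 0 to 8 with 1 library left out. At 0.1x against SD it was 5 with only the 2 groups compared and 4 to 14 with 1 library left out. At 1x against SD it was 10 to 22, and for the diet 8 to 15, with 1 library left out. The cause of these shifts was not tested. Members with few counts, such as Oas2 and Mx1, have wide errors at this depth.

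The replicate numbers in the titles were not taken to pair the samples, since deviations of same-numbered samples correlated from -0.215 to 0.076. As a hint from the data, the samples that correlated best with their own number were 2 of 2 at 0.1x against MASLD, where the block left 2 of 11 calls, 1 of 2 at 1x against SD, 0 of 3 on the diet, 0 of 2 at 1x against MASLD, 0 of 2 at 0.1x against SD and 0 of 1 at 1x against 0.1x. The replicate block takes up 0.1x sample 1 and 1x sample 2, since no other library has their numbers. Calls lost with it cannot be told apart from those lost by leaving out these libraries. With this block, the members called were 2 at 0.1x against MASLD and 4 at 1x against MASLD. They were 0 at 1x against 0.1x, 4 at 0.1x against SD and 9 at 1x against SD. With the replicate block and the trend removed they were 1, 5, 0, 5 and 9 in the same order. A block by library name was chosen after seeing the data. It called 2 members at 0.1x against MASLD and 2 at 0.1x against SD. It also takes up 1x sample 5, so the 1x group rests on sample 4 alone. For 1x, only the members' median log2 fold change is therefore given: 0.33 against MASLD, 0.2 against 0.1x and 0.47 against SD.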

Other observations

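Outside the 42 genes, the endosomal sensors of single-stranded RNA, Tlr7 and Tlr8, were higher on the MASLD diet. Tlr7 was at 0.444, 0.19 and 0.349 CPM in SD and at 1.53, 1.10 and 1.19 in MASLD (log2 fold change 1.95 ± 0.43, adjusted p = 0.00338). Tlr8 rose by 2.08 ± 0.48 (adjusted p = 0.00495). At 1x against MASLD neither passed, with Tlr7 at -1.19 ± 0.39 (adjusted p = 0.123) and Tlr8 at -1.57 ± 0.44 (adjusted p = 0.071).

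Of 28 germline genes known to be silenced by DNA methylation, 12 had a count in any library and 2 had enough to be tested, and neither passed by edgeR or by DESeq2 in any of the 6 comparisons. By edgeR, 1 had an unadjusted p under 0.05 on the diet and 0 did in the other 5 comparisons. The 2 tested genes had a median log2 fold change of 0.79 at 1x against MASLD. The 28 genes summed to 1.8 to 3.42 CPM in SD and 1.08 to 6.44 in MASLD. At 0.1x the sum was 1.08 to 5.48 and at 1x 2.38 to 10.5, so the groups overlapped. Xlr4a, singled out after its values were seen, gave 43 counts in 1x sample 4 and 0 to 3 counts in each of the other 11 libraries. The B cell markers summed to 7.12 to 290 CPM over the 3 SD libraries and to 6.33 to 16.6 CPM over the other 9.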
